A study of Homo sapiens with 54 samples.

Results

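The 10 genes of carbonyl metabolism described here, 6 aldo-keto reductases, 3 aldehyde dehydrogenases and 1 carbonyl reductase, were followed across 18 groups of MDA-MB-231 cells, left untreated or treated with Compound Kushen Injection (CKI) or with mixtures made from it. The genes were AKR1A1, AKR1B1, AKR1B10, AKR1C1, AKR1C2, AKR1C3, ALDH1A3, ALDH3A1, ALDH3A2 and CBR1, taken by symbol from the 27978 genes of the count table, and all 10 were found. The largest fold change was that of AKR1C1, whose fitted level after 48 h of CKI lacking oxymatrine, in batch 2, was 119-fold that of untreated cells. Untreated cells of batch 1 held 8.22 times as much AKR1C1 at 48 h as those of batch 2. In batch 1, CKI lacking oxymatrine and oxysophocarpine gave 36.3-fold at 48 h. AKR1C1, AKR1C2, AKR1B1 and AKR1A1 had their highest group mean in mixtures from which oxymatrine had been removed. AKR1B10, ALDH3A1, ALDH3A2 and CBR1 had theirs with whole CKI, and AKR1C3 in either, depending on time and batch. ALDH1A3 was lower at 48 h in the mixtures of purified alkaloids than in untreated cells. At 24 h it was also lower with whole CKI and with CKI lacking oxymatrine and oxysophocarpine.

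Aldo-keto reductases use NADPH to reduce aldehydes and ketones to alcohols, whereas aldehyde dehydrogenases oxidize aldehydes to carboxylic acids with NAD or NADP. Both families clear reactive carbonyls formed by lipid peroxidation, and several members also act on steroids, prostaglandins, retinoids or anticancer drugs such as the anthracyclines. Several AKR1B and AKR1C genes are known targets of the antioxidant regulator NRF2, and ALDH3A1 is a known target of the aryl hydrocarbon receptor, a sensor of planar foreign compounds.

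MDA-MB-231 is an established line of mesenchymal-like, triple-negative breast cancer cells. CKI is a mixture extracted from Sophora flavescens and Heterosmilax chinensis, and the cells were given 2 mg/ml of CKI, or of a mixture at the equivalent dose, for 24 h or 48 h, or were left untreated. In batch 1, at both times, the other groups received CKI without oxymatrine and oxysophocarpine (N-OmtOspc, labelled N_2), CKI without macrozamin, oxymatrine and oxysophocarpine (N-MacOmtOspc, labelled N_3), oxymatrine with oxysophocarpine alone (OmtOspc, labelled OO), or these alkaloids with macrozamin (MacOmtOspc, labelled MOO). In batch 2, at 48 h alone, they received CKI without macrozamin (N-Mac), without N-methylcytisine (N-Nme), without oxymatrine (N-Omt) or without trifolirhizin (N-Tri). Each group had 3 libraries, described by the submitters as biological replicates, and all came from 1 cell line. The labels do not say what distinguishes the batches, and each batch had its own untreated and CKI groups.

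The 54 libraries held 17673537 to 26138924 counted reads. Levels are given as counts scaled to the size of the library (CPM), always in the order of replicates 1, 2 and 3 as the labels number them, and the precision of low values is limited by counting error. CPM gives the share of a culture's RNA, in which a change in each cell and a change in the mix of cells cannot be told apart. VIM (488 to 1565 CPM), CD44, CAV1, AXL and EGFR were expressed in every library, and ESR1 and PGR stayed at or below 0.333 and 0.0922 CPM. Of the luminal markers, CDH1 reached 7.19 CPM, but EPCAM lay between 6.19 and 27.6 CPM and KRT8 between 178 and 2026 CPM, so that these markers were not absent. At 24 h 3 libraries stood apart along the difference between the batches, namely CKI replicate 1, OmtOspc replicate 2 and N-MacOmtOspc replicate 2. Over 979 genes that differed more than 2-fold between untreated cells of the 2 batches, 6 members among them, these libraries departed from the other libraries of their group along the batch difference with slopes of 0.659, 0.589 and 0.584, against -0.397 to 0.0822 in the other 33 libraries of batch 1. Where their omission changed a call against untreated cells at 24 h, or moved such a change by more than 0.5 on the log2 scale, the value without these 3 libraries is given beside the other. The 3 libraries were picked from these data, over genes that include 6 members, so p-values without them are descriptive. Departures of other kinds were not used to pick libraries. N-OmtOspc replicate 3 at 24 h was kept in those fits, although it also differed from its group. The scatter of counts (chi-square per degree of freedom) was 84.9 and 131 between it and replicates 1 and 2, against 11.2 between replicates 1 and 2.

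AKR1C1, AKR1C2 and AKR1C3 are neighbours on chromosome 10, AKR1B1 and AKR1B10 on chromosome 7, and ALDH3A1 and ALDH3A2 on chromosome 17. AKR1C1 and AKR1C2 had the highest correlation of all member pairs, 0.953, but AKR1C1 with AKR1B1 on chromosome 7 had 0.95. Against CKI in batch 2 AKR1C1 and AKR1C2 went opposite ways with N-Nme and N-Tri. Their promoters were nearly the same sequence, so both are printed from the RefSeq promoter table (GRCh38.p14). Each runs from 250 bases before to 50 bases after the transcript start that the table uses. For AKR1C1 this is the annotated start of the gene, whereas for AKR1C2 it lies inside the annotated gene (4987775 to 5018000) and not at its outermost start. The AKR1C1 window is chr10:4963165-4963464 on the plus strand and the AKR1C2 window is chr10:5003808-5004107 on the minus strand. Capitals mark the bases at which the aligned windows differ or 1 of them has an insertion.
AKR1C1: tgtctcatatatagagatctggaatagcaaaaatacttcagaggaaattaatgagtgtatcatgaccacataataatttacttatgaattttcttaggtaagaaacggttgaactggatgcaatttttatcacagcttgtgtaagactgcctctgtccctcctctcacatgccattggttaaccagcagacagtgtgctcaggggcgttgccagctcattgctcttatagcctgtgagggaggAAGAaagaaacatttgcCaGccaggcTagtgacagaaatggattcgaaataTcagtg
AKR1C2: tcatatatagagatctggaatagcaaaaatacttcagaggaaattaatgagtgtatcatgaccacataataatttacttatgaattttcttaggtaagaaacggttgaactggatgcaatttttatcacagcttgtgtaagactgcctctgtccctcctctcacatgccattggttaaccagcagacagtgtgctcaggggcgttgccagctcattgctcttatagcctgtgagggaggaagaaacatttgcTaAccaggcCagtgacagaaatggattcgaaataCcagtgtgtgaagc
The windows shared 288 of 292 aligned bases (98.6%), with 4 mismatches and a gap of 4 bases, whereas that of AKR1C3 shared 78.0% with AKR1C1 and 77.7% with AKR1C2. The coding sequences also overlap in part. Of the 150-base windows in the coding sequence, a length equal to 1 sequenced read, 4.63% in AKR1C1, 7.32% in AKR1C2 and 2.68% in AKR1C3 were found letter for letter in another gene, and none in the other 7 members. For 75-base windows the shares were 35.5%, 40.8% and 15.3%, and 12.9% in AKR1B10, mostly with AKR1B15. How the counting treated reads that fit several genes was not given in the sources used here, so the split of reads between AKR1C1 and AKR1C2 is less certain than that of the other members. A promoter was found for 8 of the 10 members, not for AKR1B10 and ALDH3A1. On either strand, the antioxidant response core TGACNNNGC occurred in the window of CBR1 alone among the 11 windows of these 8, against 13.3% of all 35116 promoters. The letters GCGTG, the core bound by the aryl hydrocarbon receptor, occurred in those of AKR1B1, ALDH1A3 and CBR1, against 36.5% of all promoters. For ALDH3A2 they occurred in the window at 19648501 to 19648800 on chromosome 17 but not in that at 19647886 to 19648185.

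Each treatment was first compared with untreated cells of the same time and batch, by the quasi-likelihood test of edgeR, with p-values adjusted over all genes tested by the Benjamini-Hochberg method and a gene called at an adjusted p below 0.05. Fold changes come from these fits and are given as log2 changes. All 10 members passed the filter on low counts in every fit. ALDH3A1 had 2, 7 and 6 reads in the untreated libraries of batch 2 and AKR1B10 had 10, 9 and 5, so that both passed the filter there through groups in which they were higher. Their tests in batch 2 are therefore not independent of the filter, and the counts of calls in batch 2 cover both genes. With CKI, 5 of 10 members were called at 24 h (4 higher and 1 lower) beside 30.0% of all genes tested, 9 at 48 h in batch 1 (8 higher and 1 lower) beside 54.0%, and 9 at 48 h in batch 2 (8 higher and 1 lower) beside 66.4%. The median log2 fold change of the 10 members with CKI was 1.05, 1.26 and 2.17 in turn, and that of all genes was 0.02, 0.01 and -0.01.

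For N-OmtOspc the members called were 8 at 24 h beside 62.1% of all genes and 8 at 48 h beside 76.6%. With N-MacOmtOspc they were 6 beside 45.0% and 8 beside 71.1%. OmtOspc gave 1 beside 16.7% at 24 h and 8 (3 higher and 5 lower) beside 57.8% at 48 h. MacOmtOspc gave 0 beside 10.5% at 24 h, where 1 member had an unadjusted p below 0.05 and DESeq2 called 1, and 7 (2 higher and 5 lower) beside 51.2% at 48 h. In batch 2, 7 members were called with N-Mac beside 72.4% of all genes, 8 with N-Nme beside 71.3%, 9 with N-Omt beside 78.2% and 6 with N-Tri beside 72.2%. In most of these comparisons the majority of all genes passed the test, so that a count of calls alone sets the members little apart from the background, and the sizes and directions below carry the description. Without the 3 libraries that stood apart, the calls at 24 h were 9 with CKI beside 32.7% of all genes, 8 with N-OmtOspc beside 68.5%, 8 with N-MacOmtOspc beside 54.2%, 2 with OmtOspc beside 22.3% and 4 with MacOmtOspc beside 20.2%.

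**Figure D1:**
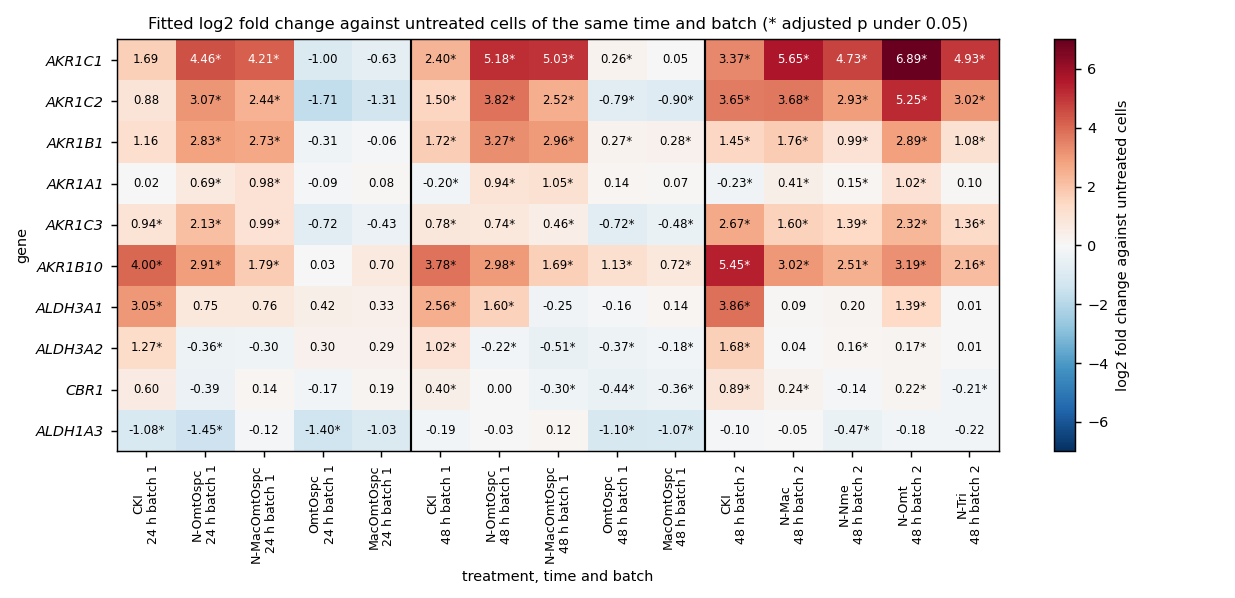
Fitted log2 fold change of each member against untreated cells of the same time and batch, 3 libraries a group, with time and batch blocks divided by lines. Red is higher and blue lower than untreated cells, and an asterisk marks an adjusted p below 0.05; AKR1C1 with N-Omt (6.89) is the darkest cell.

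AKR1C1 encodes a hydroxysteroid dehydrogenase that inactivates progesterone. Untreated cells held 11.9, 13.4 and 12.0 CPM at 48 h in batch 1. CKI raised this to 63.7, 65.2 and 67.1 CPM, N-OmtOspc to 470.3, 420.2 and 461 CPM and N-MacOmtOspc to 389, 420.5 and 412 CPM. The ranges of untreated, CKI and the removal mixtures did not overlap, while those of the 2 removal mixtures did. Fitted log2 changes were 2.40 (SE 0.08, adjusted p = 7.62e-16) with CKI, 5.18 (SE 0.09, adjusted p = 1.25e-21) with N-OmtOspc and 5.03 (SE 0.09, adjusted p = 1.06e-21) with N-MacOmtOspc. The purified alkaloids gave levels closer to the untreated 11.9, 13.4 and 12.0 CPM, at 16.6, 14.9 and 13.4 CPM with OmtOspc, a log2 change of 0.26 (adjusted p = 0.0122), and at 12.6, 12.8 and 13.5 CPM with MacOmtOspc, 0.05 (adjusted p = 0.626). OmtOspc lay just above the untreated range and MacOmtOspc overlapped it, and the OmtOspc call was lost without untreated replicate 1 (0.223) and without OmtOspc replicate 1 (0.178). In batch 2 the untreated level was lower, at 1.22, 1.49 and 1.83 CPM. It was 16.0, 14.5 and 16.3 CPM with CKI, and every single removal lay above every CKI library: 76.0, 77.7 and 72.6 CPM with N-Mac, 42.4, 41.8 and 37.8 CPM with N-Nme, 178, 186 and 177 CPM with N-Omt and 49.5, 46.1 and 45.5 CPM with N-Tri. The 6 groups of batch 2 did not overlap, in the order N-Omt, N-Mac, N-Tri, N-Nme, CKI and untreated. Against untreated cells the log2 changes were 3.37 (SE 0.12, adjusted p = 2.43e-21) with CKI, 5.65 (SE 0.10, adjusted p = 2.02e-29) with N-Mac, 4.73 (SE 0.10, adjusted p = 1.43e-26) with N-Nme, 6.89 (SE 0.09, adjusted p = 1.86e-32) with N-Omt and 4.93 (SE 0.10, adjusted p = 2.06e-27) with N-Tri.

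At 24 h the AKR1C1 groups were more scattered. Untreated cells gave 10.4, 11.6 and 10.7 CPM and CKI gave 5.89, 47.8 and 52.4 CPM. CKI replicate 1, which stood apart, lay below every untreated library and the other 2 above, and the log2 change of 1.69 (adjusted p = 0.138) became 2.20 (adjusted p = 9.00e-05) without the 3 libraries. N-OmtOspc gave 181, 140.3 and 386 CPM and N-MacOmtOspc 315, 17.0 and 268 CPM, all above the untreated range. The low value of N-MacOmtOspc is that of replicate 2, and the log2 changes were 4.46 (adjusted p = 4.69e-04) and 4.21 (adjusted p = 0.00135), the latter 4.74 (adjusted p = 2.79e-08) without the 3 libraries. Without replicate 3 of N-OmtOspc, its highest library, the N-OmtOspc change was 3.91. OmtOspc libraries held 9.06, 0.966 and 6.48 CPM and MacOmtOspc libraries 7.03, 7.44 and 6.60 CPM, below every untreated library, but neither change was called, with adjusted p of 0.465 and 0.736, nor without the 3 libraries, at -0.50 (adjusted p = 0.321) and -0.63 (adjusted p = 0.16).

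AKR1C2 inactivates the androgen dihydrotestosterone. At 48 h in batch 1 the untreated level was 7.02, 9.64 and 6.88 CPM. CKI gave 21.7, 21.3 and 23.1 CPM, N-OmtOspc 117, 104 and 112 CPM and N-MacOmtOspc 42.5, 47.4 and 45.4 CPM. These 4 groups did not overlap, and the log2 changes were 1.50 (SE 0.11, adjusted p = 2.76e-10), 3.82 (SE 0.11, adjusted p = 3.14e-18) and 2.52 (SE 0.11, adjusted p = 4.35e-15). The alkaloids lowered AKR1C2, to 4.01, 5.53 and 4.11 CPM with OmtOspc and 3.86, 4.24 and 4.52 CPM with MacOmtOspc, log2 changes of -0.79 (adjusted p = 2.98e-05) and -0.90 (adjusted p = 8.17e-06). In batch 2 the untreated libraries held 13, 12 and 15 reads, or 0.510, 0.510 and 0.624 CPM. CKI gave 6.26, 7.28 and 7.08 CPM, N-Mac 7.21, 7.02 and 6.84 CPM and N-Omt 21.5, 20.2 and 21.5 CPM. CKI and N-Mac overlapped, whereas N-Omt lay above both, with log2 changes of 3.65 (adjusted p = 2.02e-18), 3.68 (adjusted p = 4.45e-19) and 5.25 (adjusted p = 3.13e-25). N-Nme and N-Tri lay below CKI, at 3.84 to 4.59 and 4.10 to 4.95 CPM, with log2 fold changes against untreated cells of 2.93 (adjusted p = 1.92e-15) and 3.02 (adjusted p = 6.98e-16). At 24 h the values with CKI were 2.79, 15.1 and 19.3 CPM against 7.29, 6.21 and 6.69 CPM in untreated cells, and the change of 0.88 (adjusted p = 0.437) was 1.35 (adjusted p = 0.016) without the 3 libraries. N-OmtOspc and N-MacOmtOspc at 24 h gave 3.07 (adjusted p = 0.00399) and 2.44 (adjusted p = 0.0218), the latter with replicate 2, which stood apart, below every untreated library, and 2.98 (adjusted p = 1.54e-05) without the 3 libraries. The N-OmtOspc change was 2.37 without replicate 3 of N-OmtOspc, and the call with N-MacOmtOspc was lost in 5 of 6 fits that left out 1 library, where the change ranged from 1.92 to 2.98. The alkaloid mixtures lay below every untreated library at 24 h, at 0.351 to 3.77 CPM with OmtOspc and 2.04 to 3.11 CPM with MacOmtOspc. Their changes were -1.71 (adjusted p = 0.205) and -1.31 (adjusted p = 0.396), and without the 3 libraries -1.21 (adjusted p = 0.079) and -1.31 (adjusted p = 0.0361).

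AKR1C3 makes testosterone from androstenedione and prostaglandin F from prostaglandin H. At 24 h untreated cells held 107, 111 and 101 CPM. N-OmtOspc gave 433, 427 and 513 CPM, above all other groups of that time, and CKI gave 142, 220.5 and 248 CPM. In log2 terms the changes were 2.13 (SE 0.35, adjusted p = 5.42e-05) with N-OmtOspc and 0.94 (SE 0.34, adjusted p = 0.0454) with CKI, the latter 1.14 (adjusted p = 8.11e-06) without the 3 libraries. N-MacOmtOspc gave 275, 93.3 and 262 CPM, of which replicate 2 lay below every untreated library, and a change of 0.99 (adjusted p = 0.0253), or 1.34 (adjusted p = 4.78e-07) without the 3 libraries. Leaving out 1 library at a time, the call was lost in 5 of 6 fits with CKI, whose change ranged from 0.774 to 1.14, and in 5 of 6 with N-MacOmtOspc, from 0.74 to 1.34. OmtOspc and MacOmtOspc gave -0.72 (adjusted p = 0.158) and -0.43 (adjusted p = 0.488) at 24 h, and -0.41 (adjusted p = 0.027) and -0.43 (adjusted p = 0.0117) without the 3 libraries. At 48 h in batch 1 the level with N-OmtOspc was 202, 174 and 176 CPM and overlapped that with CKI, 204, 179.9 and 183 CPM, both above the untreated 107, 116 and 109 CPM. N-MacOmtOspc gave 146, 146 and 165 CPM. The changes were 0.78 (adjusted p = 1.13e-08) with CKI, 0.74 (adjusted p = 5.56e-09) with N-OmtOspc and 0.46 (adjusted p = 8.54e-06) with N-MacOmtOspc. The alkaloid mixtures lay below every untreated library, at 63.5 to 71.4 CPM with OmtOspc and 77.4 to 82.0 CPM with MacOmtOspc, changes of -0.72 (adjusted p = 2.70e-08) and -0.48 (adjusted p = 1.17e-05). In batch 2 the untreated level was 27.9, 33.4 and 30.1 CPM. CKI was highest at 193, 191 and 195 CPM, followed by N-Omt at 152, 151 and 152 CPM and N-Mac at 98.2, 89.1 and 87.4 CPM, with no overlap between them. N-Nme and N-Tri overlapped at 78.9 to 81.5 and 76.8 to 82.5 CPM. Log2 changes of batch 2 were 2.67 (adjusted p = 1.58e-26) with CKI, 2.32 (adjusted p = 6.05e-26) with N-Omt, 1.60 (adjusted p = 2.31e-21) with N-Mac, 1.39 (adjusted p = 1.36e-19) with N-Nme and 1.36 (adjusted p = 2.06e-19) with N-Tri.

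**Figure D2:**
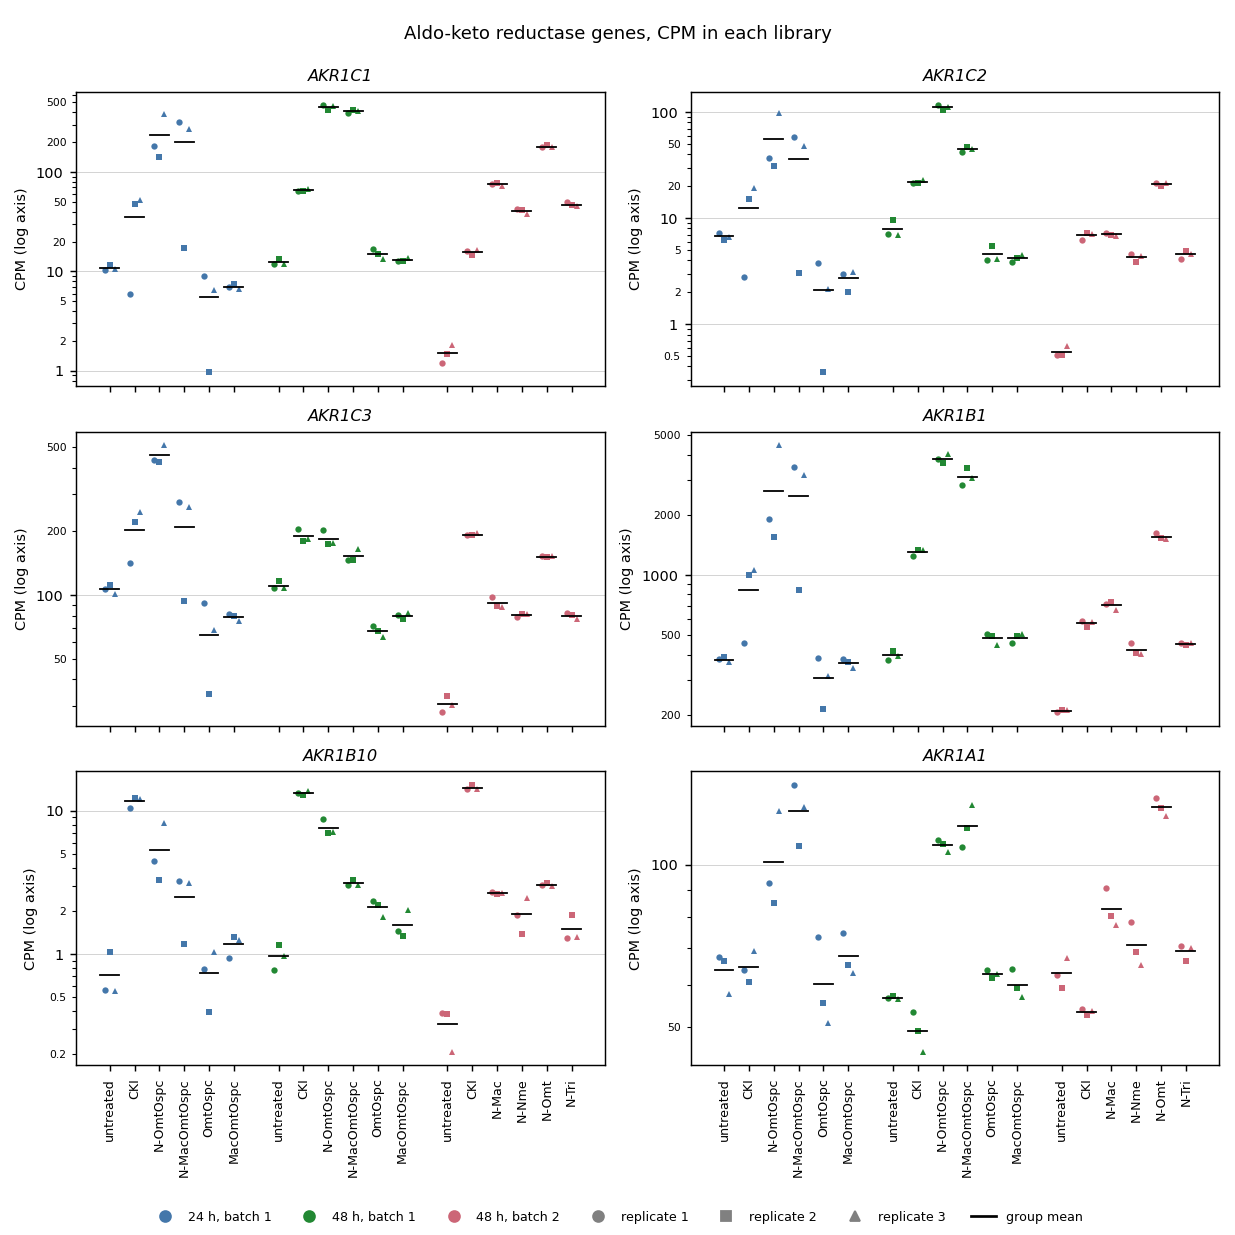
CPM of the 6 aldo-keto reductase genes on a log axis in each of 54 libraries, by treatment, with colours for time and batch, symbols for replicates and a line at each group mean. AKR1C1, AKR1C2, AKR1B1 and AKR1A1 are highest in groups lacking oxymatrine, and AKR1B10 is highest with whole CKI in each block.

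AKR1B1, aldose reductase, turns glucose into sorbitol at the start of the polyol pathway. At 48 h in batch 1 it rose from 378, 417 and 396 CPM in untreated cells to 1239, 1332 and 1334 CPM with CKI. N-OmtOspc gave 3818, 3644 and 4020.1 CPM and N-MacOmtOspc 2837, 3433 and 3054 CPM. These groups did not overlap, and the log2 changes were 1.72 (SE 0.08, adjusted p = 1.54e-13), 3.27 (SE 0.09, adjusted p = 7.04e-19) and 2.96 (SE 0.08, adjusted p = 2.19e-18). OmtOspc and MacOmtOspc, at 447 to 505 and 456 to 505 CPM, overlapped each other and lay above untreated cells by 0.27 (adjusted p = 0.0054) and 0.28 (adjusted p = 0.00523). In batch 2 untreated cells held 206, 211 and 212 CPM, CKI 587, 549 and 581 CPM and N-Omt 1617, 1539 and 1513 CPM. N-Mac was next at 719, 731 and 667 CPM, while N-Nme and N-Tri lay below CKI at 404 to 455 and 447 to 456 CPM. The fitted changes were 1.45 (adjusted p = 1.34e-20) with CKI, 2.89 (adjusted p = 1.21e-28) with N-Omt, 1.76 (adjusted p = 3.52e-23) with N-Mac, 0.99 (adjusted p = 8.67e-17) with N-Nme and 1.08 (adjusted p = 9.10e-18) with N-Tri. At 24 h CKI gave 459.6, 1003 and 1064 CPM against 378, 387 and 366 CPM in untreated cells. Replicate 1, which stood apart, was the lowest of the CKI libraries, and the change of 1.16 (adjusted p = 0.0594) was 1.45 (adjusted p = 0.00188) without the 3 libraries. N-OmtOspc gave 1908, 1559 and 4479 CPM and N-MacOmtOspc 3464, 838 and 3164 CPM, changes of 2.83 (adjusted p = 6.34e-05) and 2.73 (adjusted p = 2.04e-04), the latter 3.14 (adjusted p = 1.13e-06) without the 3 libraries. Replicate 3 of N-OmtOspc, which did not stand apart along the batch difference, held the highest level of its group for all 10 members, and without it the AKR1B1 change with N-OmtOspc was 2.23.

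AKR1B10 reduces retinals and lipid aldehydes and is known as an enzyme of the gut that is raised in several tumours. It was low in untreated cells, at 0.561, 1.03 and 0.553 CPM at 24 h, 0.771, 1.16 and 0.970 CPM at 48 h in batch 1 and 0.392, 0.382 and 0.208 CPM in batch 2. The last values rest on 10, 9 and 5 reads. AKR1B10 passed the filter of batch 2 through the treated groups, so its p-values there are not taken as support. Whole CKI gave 10.5, 12.3 and 12.1 CPM, 13.4, 12.8 and 13.7 CPM and 14.2, 15.2 and 14.2 CPM in these settings and lay above every other group each time. The log2 fold changes with CKI were 4.00 (SE 0.42, adjusted p = 5.50e-06), 3.78 (SE 0.17, adjusted p = 5.17e-14) and 5.45 (SE 0.19, adjusted p = 2.90e-21). N-OmtOspc came next, at 4.49, 3.30 and 8.27 CPM at 24 h and 8.74, 6.96 and 7.18 CPM at 48 h, with changes of 2.91 (adjusted p = 1.72e-05) and 2.98 (adjusted p = 6.01e-13). N-MacOmtOspc gave 3.22, 1.18 and 3.15 CPM and 3.06, 3.30 and 3.05 CPM, with changes of 1.79 (adjusted p = 0.00311) and 1.69 (adjusted p = 9.00e-08). Without the 3 libraries the changes at 24 h were 4.06 (adjusted p = 9.07e-07) with CKI and 2.13 (adjusted p = 2.48e-04) with N-MacOmtOspc. The single removals of batch 2 lay between CKI and untreated cells, with log2 changes of 3.19 (adjusted p = 5.29e-13) for N-Omt, 3.02 (adjusted p = 4.61e-12) for N-Mac, 2.51 (adjusted p = 1.31e-09) for N-Nme and 2.16 (adjusted p = 8.68e-08) for N-Tri. OmtOspc and MacOmtOspc were called at 48 h, 1.13 (adjusted p = 7.02e-05) and 0.72 (adjusted p = 0.00845), and not at 24 h, 0.03 (adjusted p = 0.973) and 0.70 (adjusted p = 0.395). The MacOmtOspc call at 48 h was lost without untreated replicate 1 (0.566) and without MacOmtOspc replicate 3 (0.518).

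AKR1A1, a widely expressed aldehyde reductase, varied least among the aldo-keto reductases, with group means between 49.2 and 128 CPM. It rose with each mixture lacking oxymatrine. At 48 h in batch 1 the untreated libraries held 56.6, 57.0 and 56.5 CPM, those with N-OmtOspc 111, 109 and 105 CPM and those with N-MacOmtOspc 108, 117 and 129 CPM. The 2 mixtures overlapped each other and lay above all other groups, with changes of 0.94 (adjusted p = 5.89e-11) and 1.05 (adjusted p = 1.15e-11). At 24 h the changes were 0.69 (adjusted p = 0.00123) and 0.98 (adjusted p = 1.20e-04), the latter 1.08 (adjusted p = 8.82e-05) without the 3 libraries. In batch 2 N-Omt gave 133, 128 and 123 CPM against 62.5, 59.1 and 67.1 CPM in untreated cells, a change of 1.02 (adjusted p = 1.33e-15), and N-Mac 90.4, 80.3 and 77.5 CPM, a change of 0.41 (adjusted p = 1.28e-06). N-Nme overlapped untreated cells, with 0.15 (adjusted p = 0.0364), and N-Tri gave 0.10 (adjusted p = 0.158). Whole CKI lay below every untreated library at 48 h in both batches, at 53.3, 49.3 and 45.0 CPM and 54.1, 52.8 and 53.5 CPM, with changes of -0.20 (adjusted p = 0.0215) and -0.23 (adjusted p = 0.00281). The CKI call of batch 1 was lost without untreated replicate 2 (-0.200) or CKI replicate 3 (-0.152), and that of N-Nme without untreated replicate 1 (0.149) or 2 (0.111) or N-Nme replicate 1 (0.0639). The alkaloid mixtures gave changes between -0.09 and 0.14 at the 2 times, none of which was called.

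ALDH3A1, which oxidizes aromatic and medium-chain aldehydes and is abundant in the cornea, was raised mainly by whole CKI. Untreated cells held 0.842, 1.03 and 0.369 CPM at 24 h, 0.487, 0.838 and 0.529 CPM at 48 h in batch 1 and 0.0784, 0.297 and 0.249 CPM in batch 2. CKI gave 2.97, 6.92 and 8.87 CPM, 3.76, 3.39 and 3.78 CPM and 3.13, 2.86 and 3.16 CPM, above every other group of the same time and batch. On the log2 scale the changes were 3.05 (SE 0.43, adjusted p = 7.32e-05), 2.56 (SE 0.23, adjusted p = 6.45e-09) and 3.86 (SE 0.30, adjusted p = 7.72e-13), and at 24 h 3.38 (adjusted p = 3.07e-06) without the 3 libraries. In batch 2 ALDH3A1 passed the filter only through groups in which it was high, CKI among them. Its p-values in batch 2 are therefore not taken as support. Of the mixtures, N-OmtOspc at 48 h, at 1.90, 1.51 and 2.22 CPM, and N-Omt, at 0.638, 0.458 and 0.556 CPM, were the only others called, with changes of 1.60 (adjusted p = 6.84e-06) and 1.39 (adjusted p = 0.00305). N-Mac, N-Nme and N-Tri overlapped untreated cells, and their changes of 0.09, 0.20 and 0.01 had 95% intervals of -0.90 to 1.08, -0.76 to 1.16 and -0.98 to 1.00. At 24 h the change with N-MacOmtOspc was 0.76 (adjusted p = 0.186) and 1.02 (adjusted p = 0.0321) without the 3 libraries.

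ALDH3A2, the fatty aldehyde dehydrogenase whose loss causes Sjögren-Larsson syndrome, was at 58.2, 60.8 and 57.7 CPM in untreated cells at 48 h in batch 1 and 52.9, 59.8 and 49.3 CPM in batch 2. CKI gave 149, 123 and 115 CPM at 24 h, 122, 118 and 117 CPM at 48 h in batch 1 and 176, 173 and 169 CPM in batch 2, above every other group. This gave log2 changes of 1.27 (SE 0.15, adjusted p = 1.32e-05), 1.02 (SE 0.06, adjusted p = 8.07e-12) and 1.68 (SE 0.06, adjusted p = 9.57e-22), and at 24 h 1.15 (adjusted p = 8.85e-07) without the 3 libraries. Mixtures of batch 1 lowered it at 48 h, with changes of -0.22 (adjusted p = 0.00328) with N-OmtOspc, -0.51 (adjusted p = 2.23e-07) with N-MacOmtOspc, -0.37 (adjusted p = 2.55e-05) with OmtOspc and -0.18 (adjusted p = 0.0182) with MacOmtOspc, and all 4 lay below every untreated library. At 24 h N-OmtOspc also lowered it, with a change of -0.36 (adjusted p = 0.042), and N-MacOmtOspc gave -0.30 (adjusted p = 0.112), or -0.36 (adjusted p = 0.00688) without the 3 libraries. The N-OmtOspc call at 24 h was lost in 5 of 6 fits that left out 1 library, with changes from -0.438 to -0.294. MacOmtOspc gave 0.29 (adjusted p = 0.237) at 24 h and 0.29 (adjusted p = 0.0258) without the 3 libraries. The single removals of batch 2 overlapped untreated cells, and their changes lay between 0.01 with N-Tri and 0.17 with N-Omt, of which N-Nme and N-Omt were called with adjusted p of 0.0134 and 0.00893. Leaving out 1 library, calls at 48 h were lost with MacOmtOspc without replicate 2 of untreated cells (-0.157) or of MacOmtOspc (-0.143), with N-Nme without untreated replicate 1 (0.150) or 3 (0.097) or N-Nme replicate 2 (0.134), and with N-Omt without untreated replicate 3 (0.103).

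CBR1, a carbonyl reductase of the short-chain dehydrogenase family, reduces quinones, prostaglandins and the anthracycline doxorubicin. CKI gave 118, 107 and 109.8 CPM against 78.7, 89.5 and 85.0 CPM in untreated cells at 48 h in batch 1, and 102, 104 and 104 CPM against 56.8, 59.5 and 52.1 CPM in batch 2. The groups did not overlap, and the changes were 0.40 (SE 0.08, adjusted p = 1.44e-04) and 0.89 (SE 0.07, adjusted p = 2.08e-12). At 24 h CKI libraries held 107, 133 and 152 CPM and untreated libraries 92.9, 90.1 and 76.5 CPM, a change of 0.60 (adjusted p = 0.0556), or 0.72 (adjusted p = 0.0252) without the 3 libraries, and the CKI range overlapped that of MacOmtOspc. At 48 h CBR1 fell with N-MacOmtOspc, OmtOspc and MacOmtOspc, with changes of -0.30 (adjusted p = 0.00155), -0.44 (adjusted p = 5.14e-05) and -0.36 (adjusted p = 4.73e-04), while N-OmtOspc gave 0.00 (adjusted p = 0.958). In batch 2 N-Mac and N-Omt raised it by 0.24 (adjusted p = 0.00393) and 0.22 (adjusted p = 0.00791), N-Tri lowered it with a change of -0.21 (adjusted p = 0.0114), and N-Nme gave -0.14 (adjusted p = 0.0932). The N-Omt call was lost without untreated replicate 3 (0.160) or N-Omt replicate 1 (0.161), and the N-Tri call without replicate 2 of untreated cells (-0.170) or of N-Tri (-0.168).

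ALDH1A3 makes retinoic acid from retinal and is used as a marker of stem-like breast cancer cells. It was the one member that was never called higher than in untreated cells. At 48 h in batch 1 untreated cells held 6.54, 6.56 and 7.41 CPM, cells with OmtOspc 3.69, 2.78 and 3.18 CPM and cells with MacOmtOspc 3.31, 3.40 and 3.10 CPM. The alkaloid mixtures overlapped each other and lay below all other groups, with changes of -1.10 (SE 0.15, adjusted p = 1.75e-06) and -1.07 (SE 0.15, adjusted p = 3.28e-06). CKI, N-OmtOspc and N-MacOmtOspc overlapped untreated cells at that time, with changes of -0.19, -0.03 and 0.12 and 95% intervals of -0.46 to 0.08, -0.31 to 0.24 and -0.15 to 0.39. At 24 h untreated cells held 7.35, 8.06 and 7.84 CPM. CKI gave 2.79, 4.12 and 4.06 CPM, N-OmtOspc 2.75, 1.62 and 3.94 CPM and OmtOspc 3.09, 1.41 and 4.30 CPM, all below the untreated range. The changes were -1.08 (adjusted p = 0.0272), -1.45 (adjusted p = 0.00237) and -1.40 (adjusted p = 0.0125), and without the 3 libraries -0.93 (adjusted p = 0.00736), -1.45 (adjusted p = 3.69e-05) and -1.06 (adjusted p = 0.00475). The CKI call was lost in 4 of 6 fits that left out 1 library, with changes from -1.18 to -0.926. N-MacOmtOspc gave -0.12 (adjusted p = 0.789), and 0.16 (adjusted p = 0.555) without the 3 libraries. MacOmtOspc, at 3.80, 3.45 and 4.16 CPM, gave -1.03 (adjusted p = 0.0703), and -1.03 (adjusted p = 0.00245) without the 3 libraries. In batch 2 the gene was at 3.14, 2.63 and 3.16 CPM in untreated cells and N-Nme, at 1.95, 2.31 and 2.30 CPM, was the only group called, -0.47 (adjusted p = 0.0117), a call lost without N-Nme replicate 1 (-0.399).

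**Figure D3:**
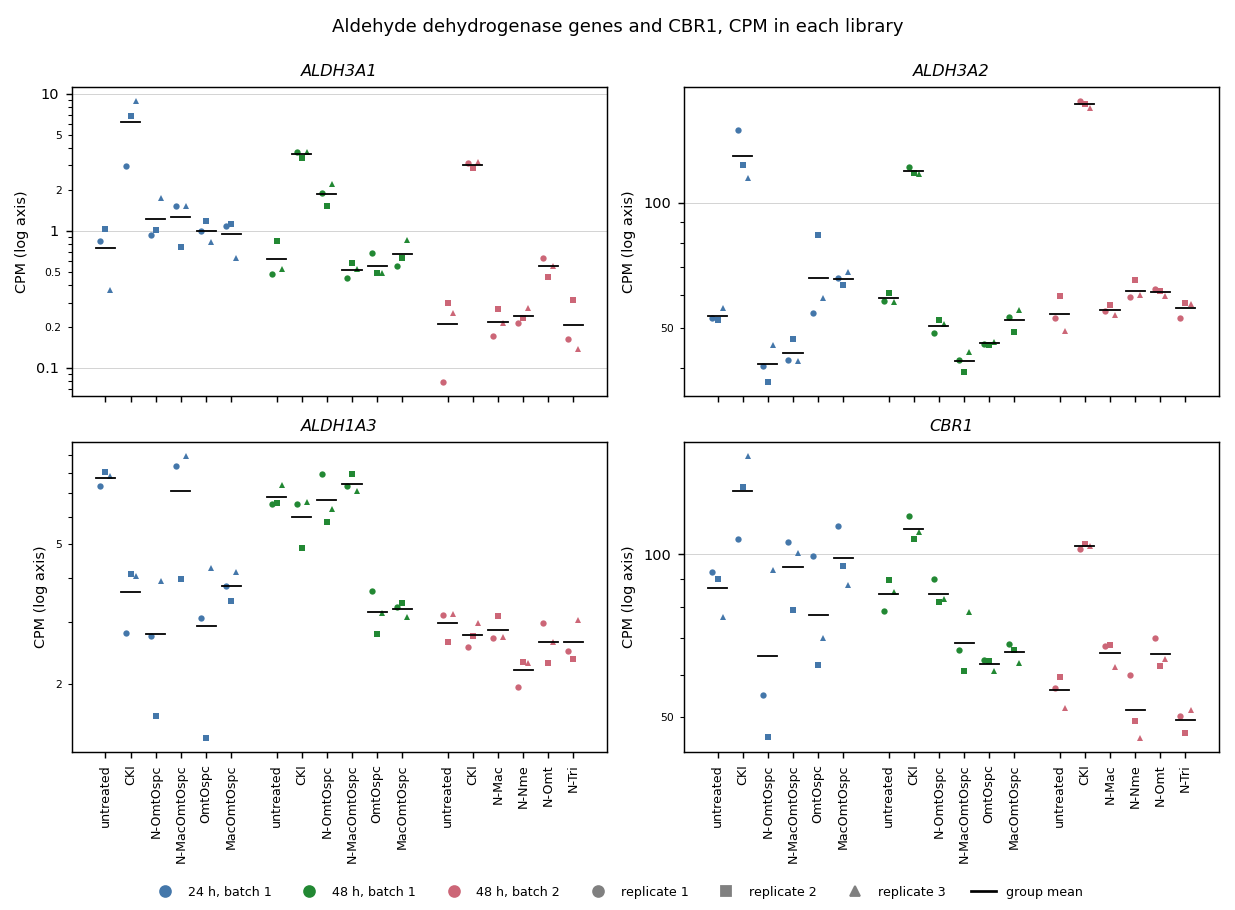
CPM of the 3 aldehyde dehydrogenase genes and CBR1 on a log axis in each of 54 libraries, drawn as for the aldo-keto reductases. ALDH3A1, ALDH3A2 and CBR1 have their highest group mean with CKI in every block, and within 48 h of batch 1 ALDH1A3 is lowest with OmtOspc and MacOmtOspc.

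The mixtures were next compared with whole CKI of the same time and batch, which asks how the members' levels differed once components had been removed. In batch 2, 8 members were called with N-Mac (3 higher and 5 lower) beside 69.4% of all genes, 9 with N-Nme (2 higher and 7 lower) beside 71.5%, 9 with N-Omt (4 higher and 5 lower) beside 76.3% and 9 with N-Tri (2 higher and 7 lower) beside 71.4%. These comparisons share the CKI libraries, and their values are set side by side. AKR1C1 was higher than with CKI in each, by 2.28, 1.36, 3.52 and 1.56 on the log2 scale for N-Mac, N-Nme, N-Omt and N-Tri. AKR1A1 was higher by 0.64, 0.38, 1.25 and 0.33 in the same order. AKR1B1 was higher with N-Mac and N-Omt, 0.31 and 1.44, and lower with N-Nme and N-Tri, -0.46 and -0.37. AKR1C2 was higher with N-Omt, 1.60, lower with N-Nme and N-Tri, -0.71 and -0.62, and differed by 0.04 with N-Mac, with a 95% interval of -0.17 to 0.24.

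The other 5 called members were lower with every single removal than with CKI. ALDH3A1 differed by -3.77, -3.66, -2.47 and -3.85 for N-Mac, N-Nme, N-Omt and N-Tri, AKR1B10 by -2.43, -2.93, -2.26 and -3.28. For ALDH3A2 the differences were -1.64, -1.52, -1.51 and -1.67, and for CBR1 -0.64, -1.02, -0.67 and -1.10. AKR1C3 differed by -1.07, -1.28, -0.36 and -1.31. The largest adjusted p among these 20 differences was 2.45e-07. Those of ALDH3A1 and AKR1B10 are not taken as support, because both passed the filter of batch 2 through groups in which they were higher, CKI among them. ALDH1A3 differed by 0.05 (adjusted p = 0.785), -0.36 (adjusted p = 0.0531), -0.08 (adjusted p = 0.665) and -0.11 (adjusted p = 0.549).

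**Figure D4:**
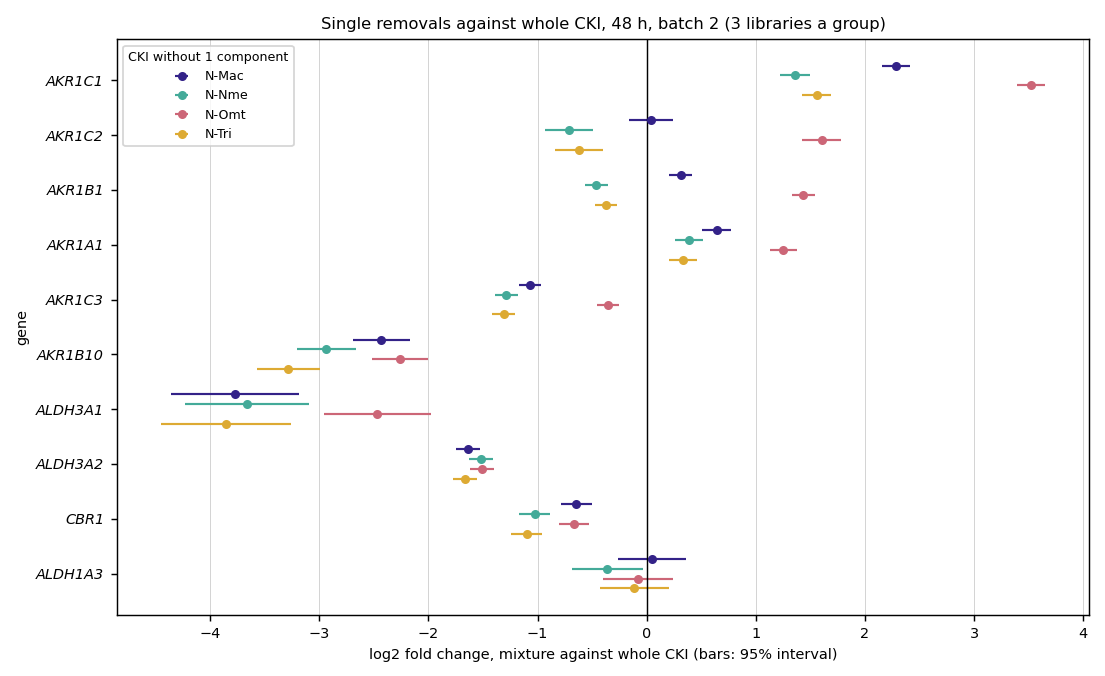
Log2 fold change of each member in CKI lacking 1 component against whole CKI at 48 h in batch 2, with 95% intervals from the fit and 3 libraries a group. AKR1C1 and AKR1A1 lie right of 0 for every removal, and AKR1C3, AKR1B10, ALDH3A1, ALDH3A2 and CBR1 lie left of 0.

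In batch 1 the members called against CKI at 48 h were 8 with N-OmtOspc (4 higher and 4 lower) beside 73.1% of all genes, 9 with N-MacOmtOspc (4 higher and 5 lower) beside 67.2%, 10 with OmtOspc (1 higher and 9 lower) beside 51.8% and 10 with MacOmtOspc (1 higher and 9 lower) beside 47.6%. At 24 h they were 9 beside 58.7%, 7 beside 35.7%, 5 beside 8.49% and 4 beside 11.6% in the same order, and without the 3 libraries that stood apart 9 beside 61.7%, 8 beside 43.7%, 7 beside 11.2% and 7 beside 14.9%. At 48 h AKR1C1, AKR1C2, AKR1B1 and AKR1A1 were higher with N-OmtOspc than with CKI, by 2.78, 2.33, 1.55 and 1.14, and with N-MacOmtOspc, by 2.63, 1.03, 1.25 and 1.25. ALDH3A1, ALDH3A2, AKR1B10 and CBR1 were lower with N-OmtOspc, with differences of -0.97, -1.23, -0.80 and -0.40, and with N-MacOmtOspc, with differences of -2.81, -1.52, -2.09 and -0.70. AKR1C3 differed by -0.04 (adjusted p = 0.641) with N-OmtOspc and -0.32 (adjusted p = 5.97e-04) with N-MacOmtOspc. The alkaloid mixtures were lower than CKI in all members other than AKR1A1, which was higher by 0.34 (adjusted p = 4.26e-04) with OmtOspc and 0.27 (adjusted p = 0.00344) with MacOmtOspc.

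Macrozamin was compared as present or absent in otherwise like mixtures of batch 1, in 4 comparisons. N-Mac against CKI in batch 2, given above, differs in macrozamin as well. There AKR1C1, AKR1A1 and AKR1B1 were higher without macrozamin. AKR1C3, AKR1B10, ALDH3A1, ALDH3A2 and CBR1 were lower without it, and AKR1C2 and ALDH1A3 were not called. MacOmtOspc against OmtOspc gave 0 members called at 24 h beside 0.00% of all genes, with 0 at an unadjusted p below 0.05 and 0 by DESeq2. At 48 h it gave 0 beside 1.98%, with 4 at an unadjusted p below 0.05 and 0 by DESeq2. The 95% intervals of these differences at 48 h were -0.37 to -0.04 for AKR1C1, 0.10 to 0.39 for AKR1C3, -0.15 to 0.16 for AKR1B1, -0.78 to -0.05 for AKR1B10, 0.07 to 0.31 for ALDH3A2 and -0.30 to 0.35 for ALDH1A3, not adjusted for the number of genes. Those of AKR1C2, AKR1A1, ALDH3A1 and CBR1 were -0.40 to 0.17, -0.21 to 0.07, -0.30 to 0.90 and -0.08 to 0.23. At 24 h those of AKR1C1 and AKR1B1 were wider, at -1.37 to 2.10 and -0.61 to 1.12. In the absence of oxymatrine and oxysophocarpine, N-OmtOspc, which keeps macrozamin, against N-MacOmtOspc gave 3 members called at 24 h (2 higher and 1 lower) beside 47.7% and 7 at 48 h (7 higher and 0 lower) beside 51.0%. At 48 h ALDH3A1 was higher with macrozamin by 1.84 (SE 0.27, adjusted p = 6.88e-06), AKR1C2 by 1.30 (SE 0.09, adjusted p = 3.71e-10) and AKR1B10 by 1.29 (SE 0.14, adjusted p = 2.32e-07). AKR1B1, CBR1, ALDH3A2 and AKR1C3 were higher by 0.31, 0.31, 0.29 and 0.28, while AKR1C1, AKR1A1 and ALDH1A3 differed by 0.15 (adjusted p = 0.0703), -0.11 (adjusted p = 0.187) and -0.15 (adjusted p = 0.377). At 24 h AKR1B10 and AKR1C3 were higher, 1.11 (adjusted p = 0.0205) and 1.14 (adjusted p = 0.0107), and ALDH1A3 was lower, -1.32 (adjusted p = 0.00659). Without the 3 libraries these were 0.78 (adjusted p = 0.0469), 0.78 (adjusted p = 1.24e-04) and -1.60 (adjusted p = 6.65e-05), and CBR1 was lower as well, -0.65 (adjusted p = 0.0271), beside 51.8% of all genes called.

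The effect of each treatment at 48 h was tested against its effect at 24 h in batch 1. With CKI 0 members were called beside 0.391% of all genes, with 1 at an unadjusted p below 0.05 and 0 by DESeq2. N-OmtOspc gave 2 beside 34.2%, N-MacOmtOspc 0 beside 7.35%, OmtOspc 1 beside 8.07% and MacOmtOspc 0 beside 2.59%. For N-MacOmtOspc and MacOmtOspc, 0 and 2 members had an unadjusted p below 0.05 and DESeq2 called 0 in each. With N-OmtOspc, the effect on AKR1C3 was smaller at 48 h, with a difference of -1.36 (SE 0.36, adjusted p = 0.00403), and that on ALDH1A3, a fall at 24 h and not called at 48 h, differed by 1.43 (SE 0.39, adjusted p = 0.00456). With OmtOspc the effect on ALDH3A2 differed by -0.64 (SE 0.15, adjusted p = 0.00767). Without the 3 libraries these differences were -1.37 (adjusted p = 3.29e-09), 1.43 (adjusted p = 3.78e-05) and -0.45 (adjusted p = 0.00341). AKR1C1 with N-OmtOspc, 0.75 (adjusted p = 0.0357), AKR1C3 with N-MacOmtOspc, -0.87 (adjusted p = 6.59e-05), and ALDH3A2 with MacOmtOspc, -0.49 (adjusted p = 0.00142), were then called too. The shares of all genes called without the 3 libraries were 42.5% for N-OmtOspc, 14.2% for N-MacOmtOspc, 13.7% for OmtOspc and 8.64% for MacOmtOspc.

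Untreated cells of batch 2 differed from those of batch 1 at 48 h. For 8 members every untreated library of batch 2 lay below every one of batch 1, AKR1A1 lay above and ALDH3A2 overlapped. How many of all genes parted in this way was not counted, so this does not set the members apart. The mean of AKR1C2 was 14.3 times as high in batch 1 as in batch 2, that of AKR1C1 8.22 times, that of AKR1C3 3.63 times and that of AKR1B1 1.89 times. Batch and the treatments given in 1 batch alone cannot be told apart. For CKI, given in both, the log2 effect at 48 h was tested between batches, and 7 members were called beside 8.90% of all genes, all with the larger effect in batch 2. A single fit of all 54 libraries called 2 members beside 1.62% of all genes. The differences were 2.16 (SE 0.23, adjusted p = 1.83e-08) for AKR1C2, 1.90 (SE 0.09, adjusted p = 9.79e-18) for AKR1C3, 1.67 (SE 0.33, adjusted p = 6.02e-04) for AKR1B10, 1.31 (SE 0.41, adjusted p = 0.0405) for ALDH3A1, 0.98 (SE 0.15, adjusted p = 2.30e-05) for AKR1C1, 0.67 (SE 0.08, adjusted p = 3.21e-07) for ALDH3A2 and 0.49 (SE 0.11, adjusted p = 0.00271) for CBR1. AKR1A1, AKR1B1 and ALDH1A3 gave -0.02 (adjusted p = 0.946), -0.25 (adjusted p = 0.0988) and 0.10 (adjusted p = 0.836). The differences of AKR1B10 and ALDH3A1 rest on 5 to 10 and 2 to 7 reads in untreated libraries of batch 2. With CKI, AKR1C3 reached 189 ± 13.3 CPM in batch 1 and 193 ± 2.08 CPM in batch 2 (SD, n = 3), AKR1B10 reached 13.3 ± 0.435 and 14.5 ± 0.616 CPM, and AKR1C1 reached 65.3 ± 1.70 CPM in batch 1 and 15.6 ± 0.973 CPM in batch 2.

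Over the 18 group means of log2 CPM, each centred on its time and batch, Pearson's r was 0.953 between AKR1C1 and AKR1C2, 0.95 between AKR1C1 and AKR1B1, and 0.803 between AKR1C1 and AKR1A1. ALDH3A1 had an r of 0.868 with ALDH3A2, 0.858 with AKR1B10 and 0.831 with CBR1. ALDH3A2 and CBR1 had 0.855. AKR1B10 had 0.613 with ALDH3A2 and 0.611 with CBR1, below its 0.822 with AKR1C3. AKR1C3 had 0.892 with AKR1C2 and 0.803 with AKR1B1. AKR1A1 and ALDH3A2 had an r of -0.583. The points share the untreated groups, the mixtures and, for AKR1C1 and AKR1C2, some identical sequence, and these values are descriptions without a test. Among 9782 or 9783 other genes averaging 10 CPM or more, the gene whose pattern was most like that of AKR1B10 was CYP1A1 (0.975), like that of AKR1C1 COX15 (0.974), like that of AKR1C2 AKR1C1 (0.953), like that of AKR1B1 GPANK1 (0.966) and like that of AKR1A1 PCGF1 (0.959). For AKR1C3 it was CAPN5 (0.944), for ALDH3A1 MINPP1 (0.943), for ALDH3A2 PHTF1 (0.951), for CBR1 SDF2 (0.948) and for ALDH1A3 RPP25L (0.864).

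**Figure D5:**
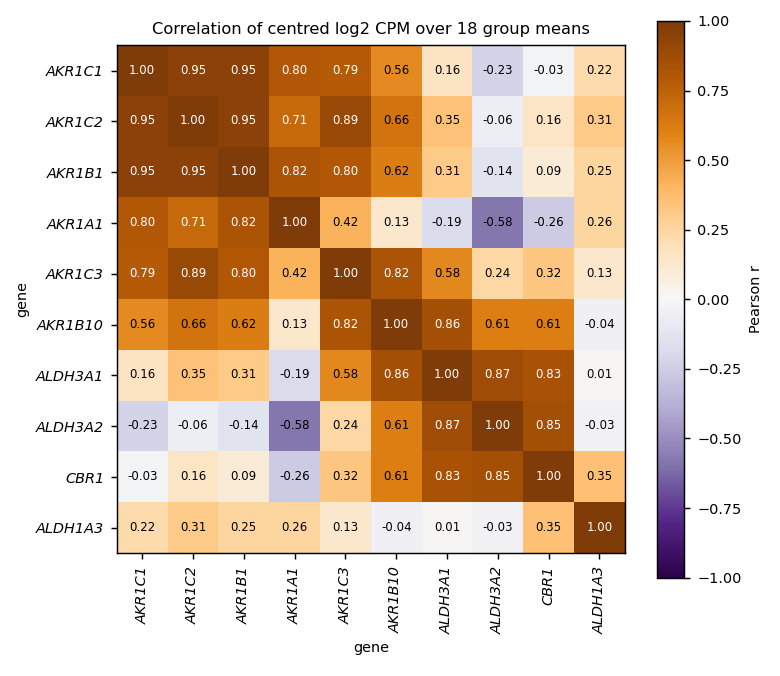
Pearson correlation of centred log2 CPM between members over 18 group means of 3 libraries each. AKR1C1, AKR1C2 and AKR1B1 form 1 block with r of 0.953, 0.95 and 0.947. ALDH3A1, ALDH3A2 and CBR1 form another with r of 0.868, 0.831 and 0.855. AKR1B10 has an r of 0.858 with ALDH3A1 and 0.822 with AKR1C3, and falls in neither block alone.

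Related genes were counted beside the members. Of 30 other genes of the AKR, ALDH and carbonyl reductase families, 24 were tested at 48 h. With CKI 3 rose and 10 fell in batch 1 beside 54.0% of all genes called in either direction, and 4 rose and 11 fell in batch 2 beside 66.4%, and with N-Omt 2 rose and 14 fell beside 78.2%, so that the shares called were near or below those of all genes. Median log2 changes were -0.16, -0.14 and -0.70, and those of all genes 0.01, -0.01 and -0.01. ALDH5A1, the succinate semialdehyde dehydrogenase, fell, with changes of -1.14 with CKI in batch 1 and -2.85 with N-Omt. CBR3, next to CBR1 on chromosome 21, fell, with changes of -0.84 and -1.77, and ALDH1B1, a mitochondrial enzyme, with changes of -0.92 and -0.93. KCNAB2, a potassium channel subunit of aldo-keto reductase fold, rose by 0.80 and 1.17, and ALDH2, the enzyme of ethanol metabolism, rose by 0.86 with CKI in batch 1.

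Of 15 NRF2 targets, 12 rose and 0 fell with CKI at 48 h in batch 1, beside 54.0% of all genes called in either direction, and 14 rose and 0 fell in batch 2, beside 66.4%, with median log2 changes of 0.68 and 0.78 against 0.01 and -0.01 for all genes. With N-Omt 11 rose and 3 fell beside 78.2% (median 0.57), and with OmtOspc at 48 h 9 rose and 3 fell beside 57.8% (0.66). N-MacOmtOspc at 48 h gave 12 higher and 0 lower beside 71.1% (0.91). MacOmtOspc at 48 h gave 11 higher and 1 lower beside 51.2% (0.69), and N-OmtOspc 9 higher and 3 lower beside 76.6% (0.79). N-Mac gave 10 higher and 2 lower beside 72.4% (0.28). GCLM, a subunit of the enzyme that starts glutathione synthesis, rose by 1.26 with CKI in batch 1 and 1.08 with N-Omt, and HMOX1, heme oxygenase, by 0.47 with CKI and 4.81 with N-OmtOspc. Of 6 aryl hydrocarbon receptor targets, 1 of them, NQO1, also in the NRF2 list, 5 were tested, and all 5 rose with CKI at 24 h beside 30.0% of all genes, and at 48 h in both batches beside the shares above. With N-Omt all 5 rose beside 78.2%, and with N-MacOmtOspc at 48 h 4 rose and 0 fell beside 71.1%. N-OmtOspc and OmtOspc at 48 h each gave 4 higher and 1 lower, beside 76.6% and 57.8%. In N-Mac, N-Nme and N-Tri 4 rose and 0 fell, beside 72.4%, 71.3% and 72.2%. Median log2 changes at 48 h were 1.70 and 1.76 with CKI, 2.00 with N-Omt, 2.17 with N-MacOmtOspc, 1.95 with N-OmtOspc and 0.85 with OmtOspc. CYP1A1, the classic target, rose by 5.68 in batch 1 and 6.88 in batch 2 with CKI, by 5.09 with N-OmtOspc and by 4.26 with N-Omt. Of 14 retinoid genes, 9 were tested in batch 1, where 4 rose and 1 fell with CKI at 48 h, and 7 rose and 0 fell with N-OmtOspc. All genes called in either direction were 54.0% and 76.6%, shares near those of the list. The median log2 changes of the list were 0.08 and 1.35, against 0.01 and 0.02 for all genes. With OmtOspc and MacOmtOspc at 48 h the list medians were -0.15 and -0.33. CRABP2, which carries retinoic acid, changed by 0.08 with CKI, without a call, and rose by 2.32 with N-OmtOspc. Of 6 polyol and aldehyde partners, 2 rose and 3 fell with CKI at 48 h in batch 1, and 1 rose and 5 fell with N-Omt, beside 54.0% and 78.2% of all genes. SORD, which turns the sorbitol made by AKR1B1 into fructose, fell, with changes of -1.03 with CKI and -0.29 with N-Omt, while AKR1B1 rose in both.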

How the data were processed

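RNA-seq (poly(A), strand-specific, paired reads of 150 bases per the labels) was done on 54 libraries in 18 groups of 3. The deposited values are raw counts per gene. By the submitters' processing notes, the authors used Trim Galore 0.3.7, STAR 2.5.3a, Subread 1.5.2 with featureCounts, edgeR 3.22.3 and hg19. Counts were fitted here with edgeR 4.0.16 (limma 3.58.1, R 4.3.3) in 3 fits of 18 libraries, 1 for each time and batch, with filterByExpr, TMM factors, the quasi-likelihood test and Benjamini-Hochberg adjustment over 15191, 15513 and 15115 genes. Time and batch differences of effects used fits of 36 libraries. CPM used TMM factors over all 54 libraries. Fitted intervals are approximate 95% intervals, the change plus or minus 1.96 standard errors, with each standard error taken from the F statistic of the quasi-likelihood test. They use a normal quantile and are narrower than that test allows. For AKR1C1 with CKI at 24 h the interval was 0.05 to 3.34, while the unadjusted p of the test was 0.0598. Alternatives were RLE factors, library sizes alone, DESeq2 1.42.0, a minimal filter, fits of only the groups compared, 1 fit of all libraries, a replicate block, and leaving out libraries. The 3 libraries that stood apart were picked from these data, over 979 genes that include 6 members. Values without them are therefore not independent of that choice. The fit without them for the time differences was also chosen after seeing the data. The script was tested on simulated data. All 10 members were named in every comparison and, for likeness, the genes with the highest r. Only some of the relatives tested were named. These relatives, and the genes of the NRF2, aryl hydrocarbon receptor, retinoid and polyol lists named singly, were chosen after their values were seen. The members and lists were chosen with earlier results of these data known. P-values measure the spread between these libraries of 1 cell line, and no molecular identifiers are named in the sources used here, so that depth covers counting error only. Promoters came from RefSeq (GRCh38.p14), matched by symbol, and were not used with coordinates of the counted build.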

Additional observations from a re-analysis of the deposited data

Results flagged for a closer look

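For 10 results the effect of a treatment differed between times or batches by a test of the difference itself, an interaction in edgeR with adjusted p below 0.05. In batch 1, the effect of N-OmtOspc at 48 h minus that at 24 h was -1.36 (adjusted p = 0.00403) for AKR1C3 and 1.43 (adjusted p = 0.00456) for ALDH1A3 on the log2 scale. For OmtOspc the same difference was -0.644 (adjusted p = 0.00767) for ALDH3A2, and 1 of the 3 OmtOspc libraries at 24 h, replicate 2, stood apart and held the highest ALDH3A2 level of its group. The effect of CKI at 48 h in batch 2 minus that in batch 1 was 2.16 (adjusted p = 1.83e-08) for AKR1C2, 1.90 (adjusted p = 9.79e-18) for AKR1C3, 1.67 (adjusted p = 6.02e-04) for AKR1B10 and 1.31 (adjusted p = 0.0405) for ALDH3A1. It was 0.983 (adjusted p = 2.30e-05) for AKR1C1, 0.672 (adjusted p = 3.21e-07) for ALDH3A2 and 0.495 (adjusted p = 0.00271) for CBR1. A single fit of all 54 libraries called 2 members in this comparison beside 1.62% of all genes. The untreated levels of 8 members, ALDH3A2 and AKR1A1 not among them, were lower in batch 2, a count not made over all genes. The part of those lower levels in these differences was not tested.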

How the results depend on the processing

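Of the 150 member changes against untreated cells, 149 kept their direction and call with RLE factors, 146 with DESeq2, 146 with the minimal filter, 139 with library sizes alone and 120 with all 54 libraries in 1 fit. Of 147 that could be fitted with only the groups compared, 134 did, and of 900 values with 1 library left out 823 did. Replicate numbers did not pair the samples (median r between -0.015 and 0.0097, all r over 0.1 in 1 of 15 group pairs at 24 h), and with the replicate block 147 of 150 kept their call.

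Signs turned for ALDH1A3 with N-MacOmtOspc at 24 h without the 3 libraries that stood apart (0.159), AKR1B10 with OmtOspc at 24 h under the replicate block (-0.0305), ALDH1A3 with library sizes alone in N-OmtOspc at 48 h (0.0351) and N-Mac (0.0195), and CBR1 with N-OmtOspc at 48 h under the minimal filter (-0.0295). None of these was called. In the following counts of members called, the percentage in parentheses is the share of all genes called under the same alternative. With all 54 libraries in 1 fit they were 8 for CKI (46.1%), 4 for OmtOspc (35.1%) and 2 for MacOmtOspc (24.9%) at 24 h, 5 (48.9%) and 1 (42.1%) for the last 2 at 48 h, 5 for N-Nme (55.0%), 8 for OmtOspc (24.7%) and 8 for MacOmtOspc (30.2%) against CKI at 24 h, 5 (59.7%) and 4 (41.3%) for N-OmtOspc against N-MacOmtOspc at 24 h and 48 h, 1 for the time difference of MacOmtOspc (6.19%) and 2 for the batch difference of CKI (1.62%). Without the 3 libraries they were 9 for CKI (32.7%), 2 for OmtOspc (22.3%) and 4 for MacOmtOspc (20.2%) at 24 h, 7 for MacOmtOspc against CKI at 24 h (14.9%), and 1 each for the time differences of N-MacOmtOspc (14.2%) and MacOmtOspc (8.64%). With only the groups compared they were 5 for MacOmtOspc at 24 h (35.8%), 4 for N-MacOmtOspc (23.1%), 3 for OmtOspc (2.32%) and 7 for MacOmtOspc (16.0%) against CKI at 24 h, and 2 for MacOmtOspc against OmtOspc at 48 h (9.72%). DESeq2 gave 1 for MacOmtOspc at 24 h (14.0%) and 8 for OmtOspc against CKI at 24 h (12.7%), the replicate block 1 for MacOmtOspc at 24 h (10.2%), and library sizes alone 5 for the time difference of N-OmtOspc (39.1%). The cause was not tested.

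With 1 library left out, the members called ranged from 3 (untreated replicate 1 left out) to 6 (CKI replicate 1 left out) for CKI at 24 h, from 1 to 2 for OmtOspc at 24 h, from 4 (without CKI replicate 1) to 8 (without N-MacOmtOspc replicate 2) for N-MacOmtOspc against CKI at 24 h, and from 4 to 8 (replicates 2 and 1 of CKI left out in turn) for OmtOspc against CKI at 24 h. Uncalled changes crossed 0. At 24 h these were AKR1A1 with CKI (-0.0501 to 0.0631) and OmtOspc (-0.257 to 0.0173), AKR1B10 with OmtOspc (-0.319 to 0.412), ALDH1A3 with N-MacOmtOspc (-0.325 to 0.158) and ALDH3A1 with MacOmtOspc (-0.000402 to 0.667). At 48 h ALDH3A1 crossed with N-MacOmtOspc (-0.39 to 0.0186), OmtOspc (-0.332 to 0.107), MacOmtOspc (-0.0659 to 0.408), N-Mac (-0.315 to 0.424), N-Nme (-0.203 to 0.536) and N-Tri (-0.486 to 0.347), ALDH3A2 with N-Mac (-0.0257 to 0.122) and N-Tri (-0.0524 to 0.0948), and ALDH1A3 (-0.181 to 0.0601) and CBR1 (-0.0564 to 0.0422) with N-OmtOspc. Depth limits ALDH3A1 most, with 8 to 24 reads in untreated libraries at 24 h and 2 to 7 in batch 2.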
